A study of Homo sapiens with 18 samples.

Results

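The transcriptional response to thapsigargin was measured in HEK293doxERN2 cells in which a high level of ERN2 had been induced. It was read from 6 of the 18 libraries of an RNA-Seq experiment, chosen by their titles, which name 3 libraries High ERN2, control and 3 High ERN2, stress. HEK293 is an established human embryonic kidney cell line, and its derivative HEK293doxERN2 makes Flag-tagged human ERN2 from a transgene under doxycycline control. Both groups had been given 100 ng/mL doxycycline for 24 hours, and they differed in a treatment of 3 hours, which was 200 nM thapsigargin in the stress group and the same volume of DMSO in the control group. The comparison groups were of the same line, with 3 control and 3 stress libraries without doxycycline (No ERN2) and 3 and 3 at 10 ng/mL (Low ERN2), treated in the same way. All the cells carried the transgene and their own ERN1. No group had doxycycline without the transgene, so doxycycline and ERN2 cannot be told apart here. Whether the line is 1 clone and whether the libraries of a group came from separate cultures is not given in the sources used here, so p-values measure the spread between these libraries, which may be technical.

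Thapsigargin blocks the pump that fills the endoplasmic reticulum (ER) with calcium, and proteins then fail to fold there. Cells answer with the unfolded protein response, which has a set of sensors in the ER membrane. IRE1 proteins (ERN1, found in most cells, and ERN2, found in mucosal epithelium) cut XBP1 mRNA so that it is spliced to encode an active transcription factor, and they can also degrade other mRNAs, a process called RIDD. ATF6 is cut in the Golgi and its released part turns on ER chaperone genes. PERK (EIF2AK3) phosphorylates a translation initiation factor, which slows protein synthesis but raises translation of ATF4, and ATF4 turns on CHOP (DDIT3) and genes of amino acid supply. The question addressed here was which of these branches still responded when ERN2 was high.

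The DNA elements through which these branches are known to act were searched in promoter windows of RefSeq on GRCh38.p14, from 250 bases before to 50 after each gene start, on both strands. ERSE, bound by ATF6 and XBP1, was searched as CCAAT and CCACG with any 9 bases between them. ERSE-II was searched as ATTGG and CCACG with any 1 base between, UPRE as TGACGTGG, and CARE, bound by ATF4 with C/EBP partners, as TGATG and AA with any 1 base between. ERSE, ERSE-II and UPRE (on its reverse strand) share the letters CCACG, so their matches can overlap. ERSE was in 0.0769% of the 35116 windows, ERSE-II in 0.0541%, UPRE in 0.729% and CARE in 3.62%. Of the 15 ER chaperone genes with a window, 5 held ERSE and 2 held ERSE-II. CARE was in 3 of 18 windows of the ATF4-CHOP genes, 3 of 11 of the amino acid genes and 6 of 14 of the aminoacyl-tRNA synthetases. Of the 19 windows of XBP1-associated genes, 1 held ERSE, 0 ERSE-II, 1 UPRE and 1 CARE. UPRE was in 5 of 18 windows of the ER-to-Golgi transport genes. The windows of HSPA5, XBP1, SDF2L1, HERPUD1 and CHAC1 are shown, without the bases after the start. Each of them holds a match, so they do not stand for their lists. DNAJB9, DDIT3 and TRIB3, for which no match was found, had been planned for display and are not shown, and XBP1 was added. The capitals mark ERSE in HSPA5 (chr9:125241344-125241593, minus strand) and XBP1 (chr22:28800570-28800819, minus strand), ERSE-II read on the reverse strand in SDF2L1 (chr22:21642052-21642301, plus strand), reverse CARE and then ERSE-II in HERPUD1 (chr16:56931892-56932141, plus strand), and reverse CARE in CHAC1 (chr15:40953221-40953470, plus strand).
HSPA5: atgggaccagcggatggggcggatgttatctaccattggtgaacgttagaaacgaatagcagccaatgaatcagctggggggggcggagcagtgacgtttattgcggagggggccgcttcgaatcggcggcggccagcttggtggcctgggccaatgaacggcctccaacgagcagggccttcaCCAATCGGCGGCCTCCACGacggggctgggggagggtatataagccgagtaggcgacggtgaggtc
XBP1: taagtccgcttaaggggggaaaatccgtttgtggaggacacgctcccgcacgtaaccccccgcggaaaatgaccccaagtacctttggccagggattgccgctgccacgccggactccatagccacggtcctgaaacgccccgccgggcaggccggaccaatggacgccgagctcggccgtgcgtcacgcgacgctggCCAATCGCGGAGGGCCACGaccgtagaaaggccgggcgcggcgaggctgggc
SDF2L1: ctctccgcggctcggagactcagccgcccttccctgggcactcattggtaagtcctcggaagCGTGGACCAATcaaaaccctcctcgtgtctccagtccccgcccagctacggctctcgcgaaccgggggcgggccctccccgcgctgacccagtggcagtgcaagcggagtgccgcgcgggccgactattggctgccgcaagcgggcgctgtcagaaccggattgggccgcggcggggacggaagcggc
HERPUD1: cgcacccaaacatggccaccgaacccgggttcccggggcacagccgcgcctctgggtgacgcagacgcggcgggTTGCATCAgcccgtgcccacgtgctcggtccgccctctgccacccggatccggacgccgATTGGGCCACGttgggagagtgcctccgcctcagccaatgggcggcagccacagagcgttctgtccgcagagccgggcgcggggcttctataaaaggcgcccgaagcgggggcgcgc
CHAC1: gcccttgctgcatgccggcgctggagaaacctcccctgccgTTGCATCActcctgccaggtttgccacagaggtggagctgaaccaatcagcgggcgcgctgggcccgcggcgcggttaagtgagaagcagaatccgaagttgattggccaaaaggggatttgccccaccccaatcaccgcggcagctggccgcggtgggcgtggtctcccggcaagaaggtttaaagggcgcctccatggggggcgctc
A match describes these letters only and is not evidence of binding.

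Between 14876416 and 24652240 reads were counted on genes per library over the series. Of 25435 rows of gene symbols, 14427 had enough reads to be tested in the 6 High ERN2 libraries. ERN2 itself, the induced gene, was at 252, 309 and 248.7 CPM (read counts corrected for library size, on 1 scale for the 18 libraries) in the High ERN2 control libraries and at 272, 175 and 175 CPM in the stress libraries. The groups overlapped, and the log2 fold change of ERN2 with thapsigargin was -0.36 (95% interval -0.77 to 0.05, adjusted p = 0.233). ERN2 was highest in stress replicate 1, and without that library it fell by 0.62 on the log2 scale (adjusted p = 0.00348), and after removal of the trend with GC content described below it was at -0.11 (adjusted p = 0.454). In the No ERN2 libraries ERN2 was at 6.57 to 14.2 CPM. The extraction label names colon crypt cells, whereas the cell line label names HEK293. CDX1, TFF3, CLCA1 and ZG16 of the 12 colon and goblet cell markers were at 0 in all 6 libraries, and the 12 together summed to 5.22 to 6.34 CPM in control and 4.18 to 6.25 CPM in stress libraries, most of it CDX2. The 8 markers of HEK293 cells summed to 2826 to 3602 CPM and 2559 to 2680 CPM, and the 8 markers of leukocytes and fibroblasts to 24.9 to 32.1 CPM and 18.1 to 25.9 CPM. No member of these 3 marker lists was called by edgeR in the response, while 1 HEK293 marker was higher and 2 lower at an unadjusted p under 0.05, and DESeq2 called 1 in each direction. The HEK293 marker GATA3 rose and KRT8 and KRT18 fell without stress replicate 1, where 9.78% of all genes tested rose and 7.84% fell. After removal of the GC trend 1 of the 8 HEK293 markers rose and 1 fell. Over all genes tested, 14.6% were higher and 12.3% lower at an unadjusted p under 0.05, which is the background of every such count below.

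High ERN2 stress replicate 1 stood apart from the other stress libraries. On the first principal component of the 6 libraries, which carried 60.0% of the variance, the controls lay at -11.5, -43.7 and -19.8 and the stress libraries at -10.1, 45.1 and 40.1. The same libraries differed in base composition. Relative to the mean of the 3 controls, the median of genes of high GC content (over 57.6% of the transcript) minus that of genes of low GC content (under 43.8%) stood at -0.31, 0.42 and -0.11 (log2) in the controls and at 0.00036, -0.75 and -1.03 in stress replicates 1, 2 and 3. The biological coefficient of variation was 17.3% with all 6 libraries and 13.6% without stress replicate 1, against 12.2% for No ERN2 and 15.0% for Low ERN2. The numbers of changed genes in the lists below are therefore given with and without this library and after removal of the GC trend, an alternative chosen after seeing the data. Over all genes tested, 9.78% rose and 7.84% fell without this library, and 2.41% rose and 4.18% fell after removal of the GC trend. In base composition, stress replicate 1 lay within the range of the controls, and replicates 2 and 3 lay below all of them. In the fit without replicate 1, treatment and base composition therefore cannot be told apart. The part of base composition in the results was not otherwise tested.

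With high ERN2, thapsigargin raised a small group of genes led by CHAC1, HERPUD1, ZNF804A, DDIT3, PTGS2 and RCAN1, and lowered HSPA8, COL4A1 and COL4A2. By edgeR's quasi-likelihood test, at a Benjamini-Hochberg adjusted p under 0.01, 26 of 14427 genes rose (0.18% of those tested) and 3 fell (0.0208%). In 24 of the 26 and in 2 of the 3 the change was over 2-fold, and in all 29 the stress libraries lay wholly above or wholly below the controls, as they did in 25.8% of the genes tested. In bulk RNA a large change in some cells and a smaller one in all cells cannot be told apart. Without stress replicate 1 the count was 2568 genes, 1426 higher (9.78% of those tested) and 1142 lower (7.84%), among them all 29. Leaving out any 1 of the other libraries gave 4 to 12 genes. DESeq2 called 728, 262 higher (2.03%) and 466 lower (3.61%), RLE size factors gave 35, 32 higher and 3 lower, and removal of the GC trend gave 884, 323 higher (2.41%) and 561 lower (4.18%), each with all 29 among them. HERPUD1, DDIT3, CHAC1 and RCAN1 passed whichever of the 6 libraries was left out, while HSPA5, STC2 and PSAT1 passed in 4 such fits. The remaining genes passed in 1 or 2 of these fits, one being the fit without stress replicate 1. In the No ERN2 cells 929 of 14397 genes rose (6.45%) and 682 fell (4.74%), and in the Low ERN2 cells 169 of 14607 rose (1.16%) and 43 fell (0.294%). These counts reflect the spread of each set of libraries as well as the size of the responses, so they do not by themselves compare the doses.

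**Figure D1:**
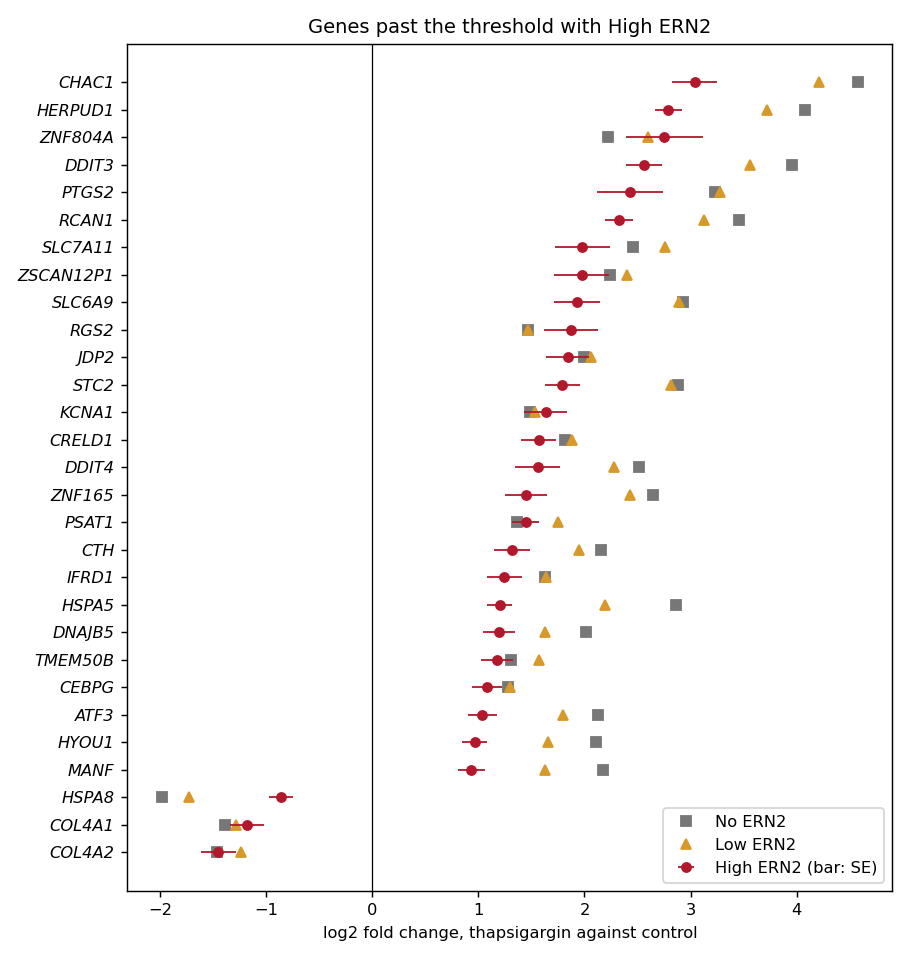
Log2 fold change with thapsigargin (x axis) of the 29 genes called at an adjusted p under 0.01 with high ERN2, 1 row per gene. The bars are standard errors of the High ERN2 values, and the further points give the same genes in No ERN2 and Low ERN2 cells; in 25 of the 29 rows the No ERN2 response is the larger.

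The ATF6 branch was read from 16 ER chaperones and folding factors. Of their 15 promoter windows 5 hold ERSE, which XBP1 binds as well as ATF6, so these genes do not stand for ATF6 alone. HSPA5, HYOU1 and MANF rose, 12 of the 16 had a log2 fold change above 0 and the median was 0.59, against -0.0024 over all genes tested. In No ERN2 cells 11 of the 16 rose with a median of 1.24, and in Low ERN2 cells 7 rose with a median of 1.05. With stress replicate 1 left out, 10 rose and P4HB fell, and after removal of the GC trend 8 rose and 1 fell.

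HSPA5 encodes BiP, the main chaperone of the ER lumen, and lies on chromosome 9 from 125234853 to 125241330 of GRCh38. It was at 965, 961 and 859 CPM in the High ERN2 control libraries and at 1922, 2244 and 2131 CPM in the stress libraries. All stress libraries lay above all controls, a 2.30-fold rise (log2 1.20, SE 0.115, adjusted p = 0.00141). Without doxycycline HSPA5 went from 468, 504 and 536 CPM to 3096, 4773 and 3046 CPM, so that it started lower and ended higher than with high ERN2. The log2 fold change there was 2.87 (SE 0.168), and at 10 ng/mL it was 2.20 (SE 0.180). HYOU1, which serves BiP as a nucleotide exchange factor, went from 325, 391 and 332 CPM to 665, 670 and 678 CPM (log2 0.96, SE 0.118, adjusted p = 0.00835). MANF, a secreted ER stress protein that binds BiP, went from 162, 181 and 159 CPM to 281, 342 and 321 CPM (log2 0.93, SE 0.128, adjusted p = 0.00969).

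Several chaperones were separated between the groups without passing the threshold. SDF2L1, a partner of ER co-chaperones, was at 22.9, 41.4 and 26.9 CPM in controls and 97.6, 61.0 and 62.0 CPM under stress. Its log2 fold change of 1.30 was larger than that of HSPA5, but its SE of 0.251 was also larger and the adjusted p was 0.0276. CRELD2, another secreted ER stress protein, had a log2 fold change of 0.94 (adjusted p = 0.0446). PDIA4, a disulfide isomerase, was at 387, 448 and 395 CPM and then 625, 573 and 605 CPM, a log2 fold change of 0.57 (SE 0.115, adjusted p = 0.0301), against 2.06 without doxycycline. Without stress replicate 1 all 3 of these passed, SDF2L1 at 1.02, CRELD2 at 0.75 and PDIA4 at 0.52 (log2).

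The IRE1 branch was read from XBP1 and 24 genes associated with it, chiefly parts of the machinery that brings proteins into the ER. Splicing of XBP1, the step made by IRE1, was not measured. The XBP1 promoter window holds ERSE, an element bound by ATF6 and XBP1, so the level of XBP1 mRNA does not stand for IRE1 alone. XBP1 mRNA did not pass the test, and neither did any of the 24. Of the 24, 8 had a log2 fold change above 0 and the median was -0.26. At an unadjusted p under 0.05 there were 3 higher and 10 lower, and DESeq2 called 1 higher and 3 lower. Without doxycycline 5 of the 24 rose with a median of 0.34, and in Low ERN2 cells 1 rose with a median of 0.10. With stress replicate 1 left out, DNAJB9, SEC61G, SRP19 and SRP54 rose and EDEM2, SEC61A1, SRPR, SSR2 and WFS1 fell. After removal of the GC trend none rose and 5 of 23 fell.

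XBP1 lies on chromosome 22 from 28794555 to 28800597, and gene counts do not separate its spliced mRNA from the unspliced form. It was at 168, 167 and 151 CPM in the High ERN2 control libraries and at 221, 199 and 225 CPM under stress. The groups did not overlap, but the 1.35-fold difference missed the threshold (log2 0.44, 95% interval 0.17 to 0.70, adjusted p = 0.0736). Without doxycycline XBP1 went from 75.4, 78.0 and 77.1 CPM to 464, 494 and 486 CPM, a 6.30-fold rise (log2 2.66, SE 0.0990), and at 10 ng/mL the log2 fold change was 1.61 (SE 0.120). Its level under thapsigargin with high ERN2 was thus below every No ERN2 stress library, although its control level was above every No ERN2 control library.

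DNAJB9, an ER co-chaperone of BiP, was at 61.9, 44.6 and 44.1 CPM in High ERN2 controls and at 63.1, 83.2 and 91.4 CPM under stress. The lowest stress library, replicate 1, was just above the highest control, and the log2 fold change of 0.68 had an adjusted p of 0.0740 and was 0.35 after removal of the GC trend. Without doxycycline DNAJB9 went from 10.8, 12.9 and 11.2 CPM to 70.6, 98.7 and 58.2 CPM. The stress libraries with and without ERN2 overlapped, and the control libraries did not. BHLHA15, a transcription factor of secretory cells, was at 6.57, 7.87 and 4.15 CPM and then 6.20, 5.63 and 3.77 CPM, overlapping groups with a log2 fold change of -0.23 (95% interval -0.85 to 0.39, adjusted p = 0.608). With a library left out it was between -0.45 (without control replicate 3) and -0.028 (without control replicate 2), and after removal of the GC trend it was 0.17. Without doxycycline BHLHA15 went from 0.70, 0.49 and 0.69 CPM to 1.68, 7.31 and 2.45 CPM (log2 2.61, adjusted p = 0.00354). Its High ERN2 controls all lay above those controls. The difference of the responses was -2.77 (95% interval -4.21 to -1.32, adjusted p = 0.0629) and did not pass. EDEM1, which hands misfolded glycoproteins to degradation, was at 67.5, 62.1 and 61.7 CPM and then 68.5, 62.4 and 72.2 CPM, again overlapping (log2 0.11, 95% interval -0.19 to 0.40), against 0.95 without doxycycline.

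Members of the ER translocon differed in sign, and none passed. SEC61G, a small subunit of its pore, had a log2 fold change of 0.58, which was 0.17 after removal of the GC trend, while SSR2, SEC61A1 and SEC61B lay below 0. SSR2, a subunit of the translocon-associated complex, was at 274, 357 and 298 CPM in controls and at 203, 152 and 156 CPM under stress (log2 -0.84, SE 0.156, adjusted p = 0.0242). SEC61A1, the pore of the translocon, was at 457, 525 and 439 CPM and then 316, 334 and 287 CPM (log2 -0.58, SE 0.125, adjusted p = 0.0393). SEC61B, another small subunit of the pore, had a log2 fold change of -0.39 (adjusted p = 0.119). In SSR2, SEC61A1 and SEC61B the stress libraries lay below the controls. Without doxycycline SEC61A1 had a log2 fold change of 0.55 and SSR2 one of 0.24, neither past the threshold.

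Genes of ER-associated degradation, by which misfolded proteins are moved out of the ER and destroyed, were led by HERPUD1, a membrane protein of the complex that carries this out. Of 17 genes HERPUD1 was the only one called, 10 had a log2 fold change above 0 and the median was 0.11. In No ERN2 cells 7 of the 17 rose, with a median of 0.40. HERPUD1 lies on chromosome 16 from 56932048 to 56944863, and its promoter window holds both ERSE-II and CARE. It was at 77.2, 75.6 and 69.0 CPM in High ERN2 controls and at 528, 457 and 528 CPM under stress, groups far apart, a 6.92-fold rise (log2 2.79, SE 0.128, adjusted p = 6.04e-06). Without doxycycline it went from 41.3, 38.1 and 38.4 CPM to 600, 755 and 622 CPM (log2 4.08, SE 0.125). HERPUD1 and 3 further genes of the list rose and 2 fell without stress replicate 1. After removal of the GC trend 4 of 16 rose and 1 fell, and the median turned to -0.034, against 0.43 in No ERN2 cells in the same fit.

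**Figure D2:**
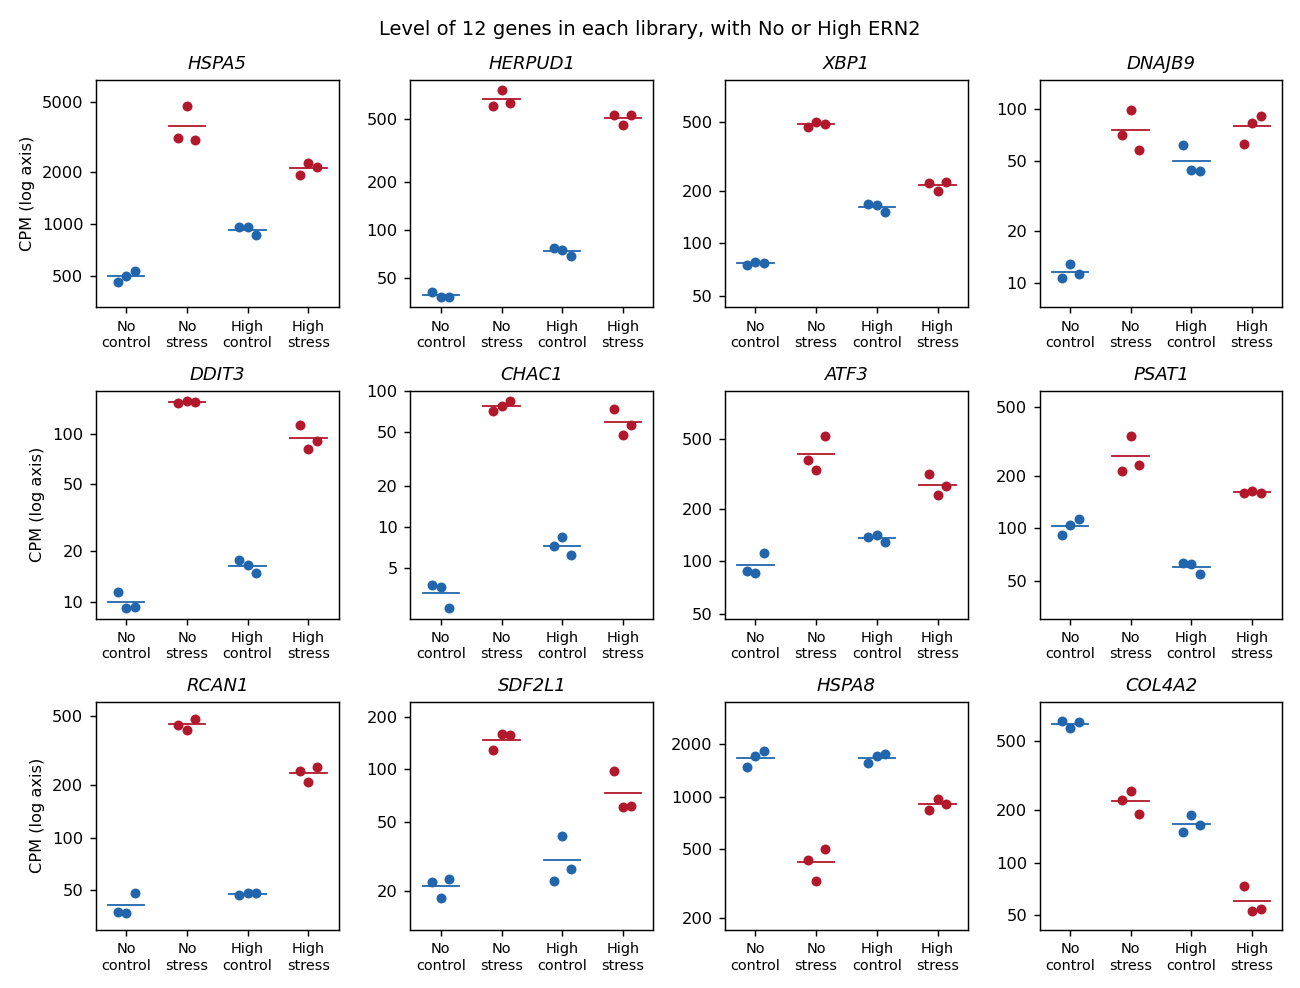
CPM on a log axis, with its own range in each panel, of 12 genes in No ERN2 and High ERN2 cells given DMSO (control) or thapsigargin (stress). Each point is a library and each line a group mean of 3 libraries; with high ERN2 XBP1 moves from 151 to 168 CPM up to 199 to 225 CPM, whereas HERPUD1 moves from 69.0 to 77.2 CPM up to 457 to 528 CPM.

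The PERK branch held the gene list with the largest share of members called, 36.8% among the 17 lists. Of 19 tested ATF4-CHOP factors and feedback regulators, 7 rose (CHAC1, DDIT3, JDP2, STC2, DDIT4, CEBPG and ATF3), 17 had a log2 fold change above 0 and the median was 1.04. The lists were chosen with earlier results of these data known, so the shares are a description. In No ERN2 cells 12 of 18 rose with a median of 1.81, and in Low ERN2 cells 12 of 19 rose with a median of 1.30. With stress replicate 1 left out, 12 rose and TNFRSF10B fell, and after removal of the GC trend 12 of 18 rose.

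CHAC1, a glutathione-degrading enzyme and target of ATF4, lies on chromosome 15 from 40952962 to 40956519. It was at 7.20, 8.40 and 6.22 CPM in High ERN2 controls and at 73.7, 47.4 and 55.8 CPM under stress, an 8.22-fold rise with no overlap (log2 3.04, SE 0.210, adjusted p = 9.74e-05). DDIT3, which encodes the transcription factor CHOP, lies on chromosome 12 from 57516588 to 57521737. It was at 17.7, 16.5 and 14.9 CPM and then 113, 81.2 and 90.5 CPM, a 5.89-fold rise with no overlap (log2 2.56, SE 0.171, adjusted p = 9.72e-05). Without doxycycline CHAC1 had a log2 fold change of 4.58 and DDIT3 one of 3.96, and in Low ERN2 cells the values were 4.21 and 3.56.

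JDP2, a basic leucine zipper factor, rose from 4.80, 4.74 and 3.99 CPM to 14.8, 19.2 and 13.9 CPM (log2 1.84, adjusted p = 0.00388). STC2, a secreted glycoprotein of the stress response, rose from 32.3, 26.1 and 24.6 CPM to 89.1, 85.9 and 108 CPM (log2 1.79, adjusted p = 0.00102). DDIT4, an inhibitor of mTOR signalling, rose from 18.4, 22.8 and 15.3 CPM to 69.8, 46.1 and 47.9 CPM (log2 1.56, adjusted p = 0.00925). In these 3 genes the groups were well separated. ATF3, a repressor induced by ATF4, rose from 138, 142 and 130 CPM to 317, 239 and 270 CPM (log2 1.04, adjusted p = 0.00889). CEBPG, a binding partner of ATF4, rose from 123, 115 and 106 CPM to 201, 257 and 257 CPM (log2 1.08, adjusted p = 0.00889). Without doxycycline JDP2 had a log2 fold change of 2.00 and CEBPG one of 1.28, and the differences of the responses were -0.07 (95% interval -0.59 to 0.45) and -0.12 (95% interval -0.52 to 0.28).

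Among the other regulators of this branch, ATF4, PPP1R15A, SESN2 and TRIB3 missed the threshold. ATF4 mRNA was at 370, 460 and 378 CPM in controls and 879, 722 and 615 CPM under stress (log2 0.90, SE 0.156, adjusted p = 0.0202). PPP1R15A (GADD34), which reverses the phosphorylation made by PERK, had a log2 fold change of 0.88 (adjusted p = 0.01003) and SESN2, a sensor of leucine, one of 1.26 (adjusted p = 0.0103). TRIB3, a pseudokinase that feeds back on this branch, was at 24.9, 30.5 and 20.1 CPM and then 58.5, 61.9 and 34.4 CPM (log2 1.06, SE 0.239, adjusted p = 0.0446). The groups did not overlap in any of these 4 genes, and all 4 passed without stress replicate 1. CEBPB also passed in that fit (log2 1.25). KLHL24 (log2 0.44), NUPR1 (0.78), ATF5 (0.25), VLDLR (0.22), ERO1L (0.17) and GDF15 (-2.50) did not.

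Genes of amino acid supply, which ATF4 is known to drive, rose in 4 of 15 cases, 14 had a log2 fold change above 0 and the median was 0.81. SLC7A11, the cystine importer, rose from 21.8, 12.1 and 14.8 CPM to 44.8, 69.8 and 74.6 CPM (log2 1.98, SE 0.256, adjusted p = 0.00889). SLC6A9, a glycine transporter, rose from 6.52, 7.04 and 5.10 CPM to 24.0, 27.8 and 18.4 CPM (log2 1.93, SE 0.213, adjusted p = 0.00397). PSAT1, an enzyme of serine synthesis, rose from 63.2, 62.4 and 54.8 CPM to 159, 164 and 161 CPM (log2 1.45, SE 0.128, adjusted p = 0.000916). The stress libraries of all 3 lay above the controls. CTH, which makes cysteine, rose from 9.02, 8.53 and 8.29 CPM to 18.6, 20.7 and 24.3 CPM (log2 1.32, adjusted p = 0.00889). ASNS, asparagine synthetase, was separated in the same direction and missed the threshold (log2 1.23, SE 0.185, adjusted p = 0.0118). In No ERN2 cells 12 of the 15 rose with a median of 1.34 and in Low ERN2 cells 11, with a median of 1.22. Without stress replicate 1, 9 of the 15 rose with high ERN2, and after removal of the GC trend 12 did with a median of 0.74, against 13 with a median of 1.37 in No ERN2 cells. Over all genes, removal of the GC trend gave 1493 higher and 1267 lower in No ERN2 cells, against 323 and 561 with high ERN2. For PSAT1 the response was 1.45 with high ERN2 and 1.36 without doxycycline, and the difference in the joint fit was 0.17 (95% interval -0.30 to 0.64). For ASNS the difference was -0.03 (95% interval -0.69 to 0.63).

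SLC3A2, the heavy chain that SLC7A11 and related transporters need at the cell surface, is named here after its values were seen. With high ERN2 it was at 171, 241 and 167 CPM in controls and 232, 158 and 143 CPM under stress, overlapping groups (log2 -0.10, 95% interval -0.55 to 0.36). Its log2 fold change was -0.36 without stress replicate 1 (adjusted p = 0.0963) and 0.05 after removal of the GC trend. Without doxycycline it rose from 107, 87.7 and 113 CPM to 278, 343 and 361 CPM (log2 1.68). The difference of the responses was -1.70 (SE 0.258, adjusted p = 0.0101), just outside the threshold, and after removal of the GC trend it was -1.57 and passed (adjusted p = 0.000136).

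None of the 18 cytosolic aminoacyl-tRNA synthetases, which load tRNAs and are further ATF4 targets, was called by edgeR. At an unadjusted p under 0.05, 10 were higher and 0 lower, DESeq2 called 7 higher, and without stress replicate 1 9 rose. Their median log2 fold change was 0.42, and without doxycycline it was 0.41, where 7 of 18 rose. After removal of the GC trend 8 rose with high ERN2 with a median of 0.17, against 10 with a median of 0.44 without doxycycline. Over all genes 323 rose in the former fit and 1493 in the latter. TARS, the threonyl enzyme, was at 302, 249 and 306 CPM and then 386, 548 and 541 CPM (log2 0.80, adjusted p = 0.0299). GARS, the glycyl enzyme, was at 148, 141 and 151 CPM and then 203, 282 and 267 CPM (log2 0.80, adjusted p = 0.0239). CARS, the cysteinyl enzyme, had a log2 fold change of 0.71 (adjusted p = 0.0252). The stress libraries of these 3 genes lay above the controls, and replicate 1 was the lowest for TARS and GARS but the highest for CARS.

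**Figure D3:**
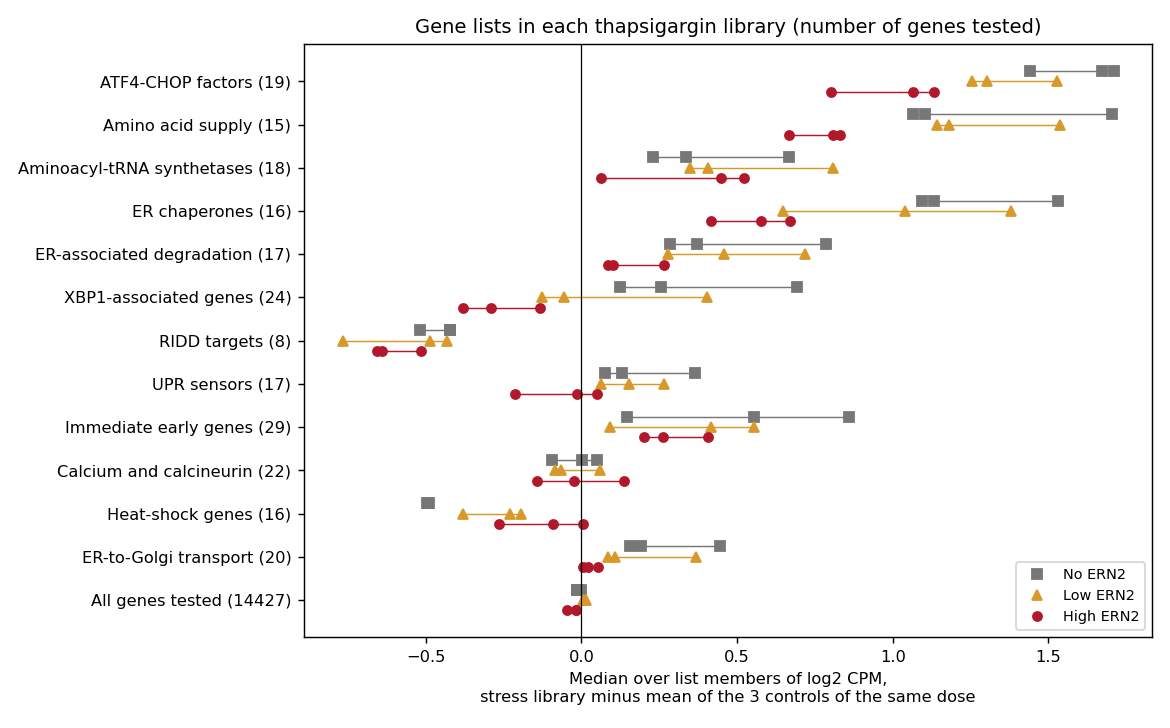
Median over the tested members of each gene list, and over all genes tested, of log2 CPM in a stress library minus the mean of the control libraries of the same dose (x axis), 1 point per stress library and 3 per dose. The ATF4-CHOP list stands at 1.13, 1.06 and 0.80 in the 3 High ERN2 libraries and the XBP1-associated list at -0.38, -0.29 and -0.13.

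Read on its own against the mean of the controls, each of the 3 High ERN2 stress libraries had the ATF4-CHOP and amino acid lists highest among 4 lists compared, then the chaperones, and the XBP1-associated genes lowest. The median of the ATF4-CHOP list was 1.13, 1.06 and 0.80 in replicates 1, 2 and 3. For the amino acid list it was 0.67, 0.81 and 0.83, for the chaperones 0.42, 0.58 and 0.67, and for the XBP1-associated genes -0.38, -0.29 and -0.13. The aminoacyl-tRNA synthetases, a further list of the PERK branch, stood at 0.06, 0.52 and 0.45, below the chaperones in each library. The order of the branches thus depends on the lists compared. Replicate 1, which stood apart on the principal component, was thus the highest of the 3 for ATF4-CHOP and the lowest for the others. In the No ERN2 stress libraries the ATF4-CHOP list stood at 1.44, 1.67 and 1.71 and the amino acid list at 1.06, 1.70 and 1.10. There the XBP1-associated genes stood at 0.12, 0.69 and 0.26 and the chaperones at 1.09, 1.53 and 1.13. The XBP1-associated genes were thus the lowest of the 4 lists without doxycycline as well. They were also the lowest in the Low ERN2 stress libraries, at -0.13, 0.40 and -0.056.

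The sensors themselves were not called with high ERN2. Of 17 sensors and upstream factors, edgeR called 0, 3 were higher and 3 lower at an unadjusted p under 0.05, and DESeq2 called 1 lower. EIF2AK2, NFE2L2 and EIF2AK3 rose and ERN2 and MBTPS1 fell without stress replicate 1, and after removal of the GC trend 2 rose and 2 fell. ERN1, the common IRE1, was at 4.02, 5.07 and 5.42 CPM in controls and 6.15, 5.14 and 5.84 CPM under stress, overlapping groups (log2 0.26, 95% interval -0.20 to 0.73). EIF2AK3, which encodes PERK, was at 46.9, 36.0 and 38.9 CPM and then 46.8, 58.0 and 74.2 CPM, with replicate 1 under the highest control (log2 0.58, adjusted p = 0.104, 0.70 with an adjusted p of 0.00485 without that library, and 0.32 after removal of the GC trend). ATF6 was at 126, 96.5 and 122 CPM and then 95.1, 127 and 134 CPM, overlapping (log2 0.07, 95% interval -0.30 to 0.44). CREB3L2, a relative of ATF6, had a log2 fold change of -0.09 with high ERN2 (95% interval -0.40 to 0.22) and 1.28 without doxycycline. Without doxycycline 5 of the 17 rose, ERN1, XBP1, EIF2AK3 and CREB3L2 among them, and 1 fell.

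None of 8 tested genes known as RIDD targets was called, though 7 had a log2 fold change below 0, with a median of -0.61. At an unadjusted p under 0.05 there were 6 lower and 0 higher, DESeq2 called 4 lower, 5 fell without stress replicate 1, and 3 fell after removal of the GC trend. BLOC1S1, the most used marker of this decay, was at 3.34, 4.00 and 2.76 CPM in High ERN2 controls and at 2.63, 1.34 and 1.03 CPM under stress (log2 -0.98, SE 0.355, adjusted p = 0.127, and -1.52 without stress replicate 1). CD59, a surface inhibitor of complement, was at 55.7, 56.6 and 58.5 CPM and then 33.4, 36.7 and 34.1 CPM (log2 -0.69, adjusted p = 0.0298). SPARC, a secreted matrix protein, was at 140, 160 and 131 CPM and then 102, 89.0 and 97.0 CPM (log2 -0.56, adjusted p = 0.0482, and -0.36 after removal of the GC trend). The stress libraries of all 3 lay below the controls. Without doxycycline 3 of the 8 fell with a median of -0.46, and in Low ERN2 cells 0 did with a median of -0.57. A lower mRNA level is not a measurement of its cleavage.

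Outside these branches, thapsigargin with high ERN2 raised RCAN1, an inhibitor of calcineurin that is itself induced by calcium. RCAN1 lies on chromosome 21 from 34513142 to 34615142 and was the only one of 22 genes of ER calcium handling and calcineurin that was called. It was at 46.6, 47.9 and 48.3 CPM in controls and at 241, 208 and 255 CPM under stress, a 5.00-fold rise with no overlap (log2 2.32, SE 0.133, adjusted p = 2.99e-05), against a log2 fold change of 3.46 without doxycycline. Without stress replicate 1 it stayed called at 2.28. In that fit 3 of the 22 fell (ITPR3, ORAI2 and ORAI3, channels of calcium release and entry), where 7.84% of all genes tested fell. After removal of the GC trend 1 of the list rose and 0 fell.

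Among 29 tested immediate early genes, which cells switch on within minutes of a stimulus, PTGS2 was called. PTGS2, a prostaglandin-forming enzyme, was at 3.13, 2.43 and 3.13 CPM and then 13.2, 9.72 and 23.1 CPM (log2 2.43, SE 0.311, adjusted p = 0.00889). The lowest stress library was well above the highest control. EGR1, a zinc finger factor, was at 108, 127 and 127 CPM and then 215, 264 and 203 CPM and missed the threshold (log2 0.93, SE 0.147, adjusted p = 0.0137). FOS, a part of AP-1, had a log2 fold change of 0.73 (adjusted p = 0.0579). Of the 29 genes 22 lay above 0 with a median of 0.41, and 12 rose and 1 fell in No ERN2 cells. PTGS2, NR4A2, GADD45A, EGR1, FOSL1 and CYR61 rose and JUND fell without stress replicate 1, and after removal of the GC trend 11 rose and 0 fell.

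Heat-shock genes of the cytosol and mitochondria, many of them targets of the factor HSF1 rather than of the unfolded protein response, stood apart from the ER chaperones. HSPA8, the constitutive cytosolic HSP70, was at 1564, 1709 and 1747 CPM in High ERN2 controls and at 835, 975 and 906 CPM under stress. No stress library reached a control, and HSPA8 fell by 0.86 on the log2 scale (SE 0.115, adjusted p = 0.00889). HSPA1A, an inducible HSP70 whose reads may be shared with its near-identical copy HSPA1B, was at 107, 159 and 140 CPM and then 70.4, 71.8 and 64.0 CPM (log2 -0.95, adjusted p = 0.0191). Of the 16 genes 1 was called, 7 lay above 0 and the median was -0.05. In No ERN2 cells 7 of the 16 fell with a median of -0.51, among them HSPA8 at -1.99 and HSPA1A at -1.88. Without stress replicate 1, 3 rose and 4 fell with high ERN2, and after removal of the GC trend 0 rose and 3 fell.

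The lists of cell death, sterol and transport genes had no member called by edgeR with high ERN2. Of 14 BCL2 family members and death receptors, 2 were higher and 3 lower at an unadjusted p under 0.05, and DESeq2 called 1 in each direction. Leaving out stress replicate 1 gave 2 higher and 2 lower, and removal of the GC trend 1 and 1. PMAIP1 (NOXA), a promoter of cell death, was at 314, 288 and 277 CPM and then 393, 420 and 486 CPM, separated groups with a log2 fold change of 0.58 (adjusted p = 0.0366), against 0.11 without doxycycline. Of 15 sterol genes 3 were higher and 7 lower at an unadjusted p under 0.05, and DESeq2 called 2 and 2. For these genes the same alternatives gave 3 higher and 6 lower, and 2 and 3. STARD4, a carrier of cholesterol, had a log2 fold change of 0.92 (adjusted p = 0.0339), which was 0.58 and passed after removal of the GC trend (adjusted p = 0.00835). Of 20 genes of ER-to-Golgi transport 6 were higher and 3 lower at an unadjusted p under 0.05, and DESeq2 called 1 and 1, against 4 and 1 without stress replicate 1 and 0 and 1 after removal of the GC trend. SEC24D, a coat subunit of vesicles leaving the ER, was at 113, 96.8 and 95.1 CPM and then 128, 175 and 127 CPM (log2 0.52, adjusted p = 0.0965, and 0.30 after removal of the GC trend), against 1.61 without doxycycline. Its stress libraries lay above the controls.

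The 2 collagen IV genes COL4A1 and COL4A2, chains of basement membrane that lie head to head on chromosome 13, fell together. COL4A2 was at 150, 188 and 165 CPM in High ERN2 controls and at 73.4, 52.7 and 54.4 CPM under stress, and it fell by 1.45 on the log2 scale (SE 0.166, adjusted p = 0.00475). COL4A1 was at 42.9, 51.8 and 45.2 CPM and then 22.1, 17.5 and 20.97 CPM, and it fell by 1.18 (SE 0.158, adjusted p = 0.00889). The groups of both were separated. COL4A1 spans positions 110148963 to 110307233 and COL4A2 110305812 to 110513209 on opposite strands in GENCODE 29, so they overlap at their starts, and whether reads were counted by strand is not given in the sources used here. Their responses without doxycycline were -1.39 and -1.46, and the differences of the responses were 0.29 (95% interval -0.06 to 0.65) and 0.09 (95% interval -0.35 to 0.53).

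The size of the response was compared with that of No ERN2 cells in 1 fit of 12 libraries. Of 14768 genes 5 had a lower response with high ERN2 (0.0339%) and 1 a higher one (0.00677%). Without High ERN2 stress replicate 1 the count was 1286, 421 lower and 865 higher, and it held all 6 of these genes. DESeq2 called 204 lower and 137 higher, and RLE size factors 11 and 3. Because this fit scales 12 libraries together, a difference need not equal the gap of the separately fitted responses.

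XBP1 had the difference with the smallest adjusted p, -2.14 (SE 0.128, adjusted p = 1.2e-06), and it passed under every alternative run. FICD, the enzyme that AMPylates and so inactivates BiP, differed by -2.16 (SE 0.241, adjusted p = 0.00204) and also passed under every alternative. FICD was at 16.9, 21.8 and 15.7 CPM in High ERN2 controls and at 26.1, 27.4 and 20.6 CPM under stress, overlapping groups, and without doxycycline it rose from 4.60, 4.99 and 5.09 CPM to 29.1, 36.6 and 29.7 CPM. HSPA5 differed by -1.58 (SE 0.219, adjusted p = 0.00897), PDIA4 by -1.40 (SE 0.192, adjusted p = 0.00897) and HERPUD1 by -1.21 (SE 0.155, adjusted p = 0.00741). SUMO2, a ubiquitin-like modifier, differed by 1.05 (SE 0.143, adjusted p = 0.00897). It was at 234, 252 and 254 CPM and then 224, 264 and 259 CPM with high ERN2, overlapping groups, and it fell from 217, 231 and 244 CPM to 112, 122 and 127 CPM without doxycycline.

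Just outside the threshold, with adjusted p-values of 0.0101, lay DNAJB9 at -1.96 (SE 0.297), DDIT3 at -1.32 (SE 0.191) and RCAN1 at -1.05 (SE 0.160). CHAC1 differed by -1.46 (adjusted p = 0.0238) and SDF2L1 by -1.42 (adjusted p = 0.0393). On the other side HSPA8 differed by 1.21 (adjusted p = 0.0109). By list, 0 of the 16 chaperones had a difference above 0, with a median of -0.83, against a median of 0.04 over all genes tested. For the ATF4-CHOP genes 3 of 20 were above 0 with a median of -0.72, and for the XBP1-associated genes 5 of 24 with a median of -0.64. The amino acid genes stood at a median of -0.37 with 4 of 15 above 0, and the aminoacyl-tRNA synthetases at 0.05 with 10 of 18 above 0, a median that turned to -0.090 after removal of the GC trend. Heat-shock genes were above 0 in 14 of 16 cases with a median of 0.72, which was 0.41 after removal of the GC trend. Differences of branches from one another, and of High from Low ERN2, were not tested.

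**Figure D4:**
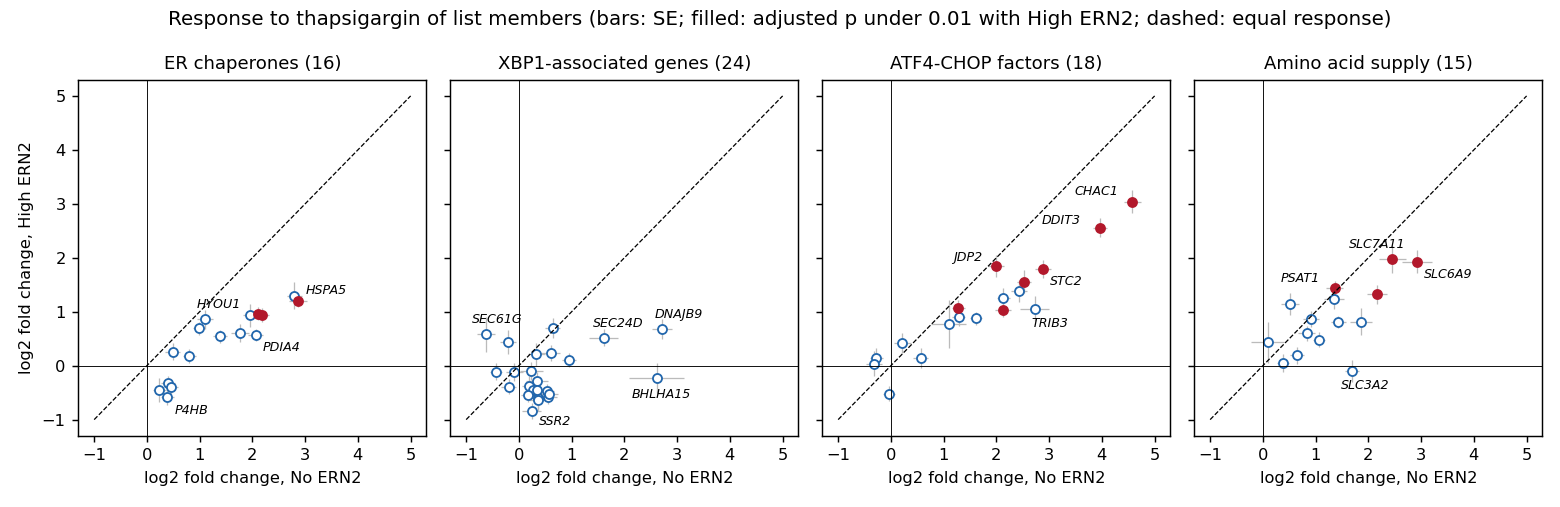
Log2 fold change with thapsigargin in High ERN2 cells (y axis) against that in No ERN2 cells (x axis) for the members of 4 gene lists, with standard errors as bars and filled points for genes called with high ERN2. On the y axis the XBP1-associated genes have a median of -0.26, with 8 of 24 above 0, DNAJB9 at 0.68 among them. The ATF4-CHOP genes have a median of 1.04 over all 19 tested with high ERN2, with 17 above 0. The 7 called ATF4-CHOP genes lie between 1.04 (ATF3) and 3.04 (CHAC1), all under the line of equal response.

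Genes called in No ERN2 cells, which share no library with the High ERN2 cells, were then read in the latter. Of the 926 that had risen without doxycycline and were tested in both, 780 (84.2%) had a log2 fold change above 0 with high ERN2, against 49.7% of 14146 genes tested at all 3 doses. Their median was 0.76 without doxycycline, 0.58 at 10 ng/mL and 0.33 with high ERN2. Of the 681 that had fallen, 512 (75.2%) lay below 0, with medians of -0.66, -0.46 and -0.27. The No ERN2 medians are raised in size because these genes were chosen by their own test there. All 29 genes called with high ERN2 were called in the same direction without doxycycline, the 26 that rose being 100% of that list and 2.81% of the 926, and the 3 that fell 100% and 0.441% of the 681.

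**Figure D5:**
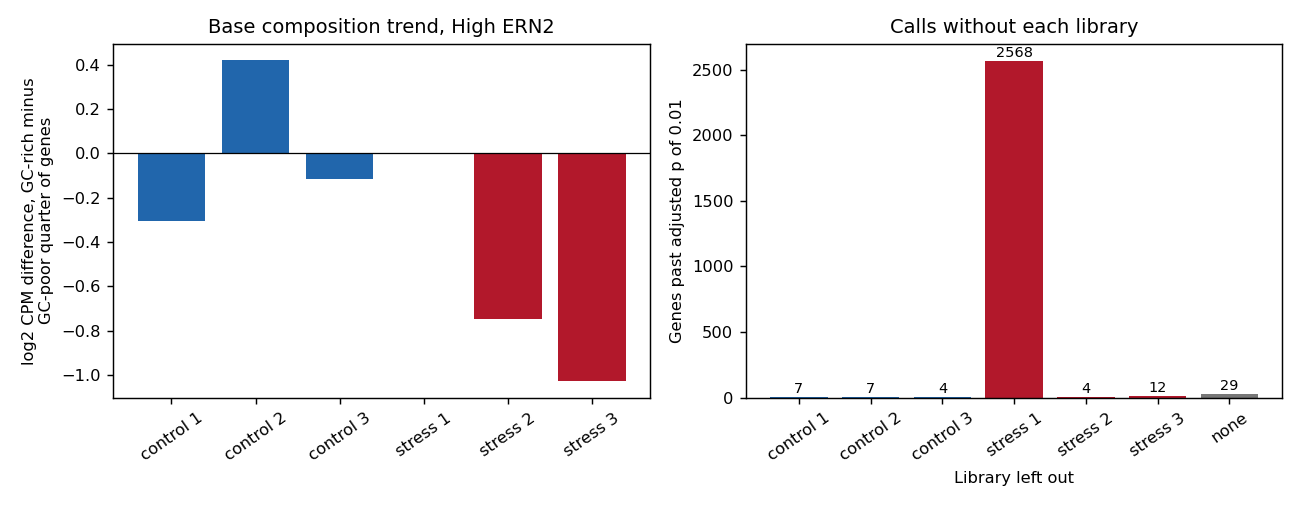
Left, the difference of the medians between genes of high (over 57.6%) and low (under 43.8%) GC content in each High ERN2 library (log2, relative to the mean of the 3 controls), from 0.42 in control replicate 2 to -1.03 in stress replicate 3. Right, the number of genes called with each library left out in turn, which is 2568 without stress replicate 1, 4 to 12 without any other library and 29 with all 6.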

How the data were processed

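RNA-Seq libraries of HEK293doxERN2 cells were grouped by their titles, 3 libraries in each of 6 groups. Per the labels and the study's methods, RNA was prepared with a stranded mRNA kit, sequenced single-end and aligned with STAR to hg38. The authors deposited the read counts of each gene and library as counted, not normalized. The annotation and strand setting are not given in the sources used here. Totals were 14876416 to 24652240 counts, and replicates of every group differed by more than sampling noise. 28 symbols had become dates and 0 were mitochondrial.

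Genes were kept by filterByExpr (minimum count 10), scaled by TMM and tested on the groups compared with edgeR 4.0.16 (glmQLFit, glmQLFTest; R 4.3.3), Benjamini-Hochberg adjustment and the study's threshold of 0.01. Standard errors are the log2 fold change over the root of F. CPM were scaled over the 18 libraries. The alternatives were DESeq2 1.42.0, RLE, no filter, all 6 groups, a replicate block, 0.05, each library left out, and a GC trend (loess, span 0.3) removed. Scripts were tested on simulated data. An exact permutation of 3 against 3 cannot give a p under 0.1.

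Members and the 17 gene lists were chosen with earlier results of these data known. Named genes were a written list of stress genes, the 5 highest and lowest called, the called members of each list (3 per direction), any member of a list with none called, and the called differences. Genes named as called only without stress replicate 1 were chosen after their values were seen. GC content and positions came from GENCODE 29 (GRCh38) for 22635 of 25433 symbols, promoters from RefSeq for 215 of 279 list genes. Figures used matplotlib 3.10.9.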

Additional observations from a re-analysis of the deposited data

Results flagged for a closer look

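For 6 genes the response to thapsigargin differed between High ERN2 and No ERN2 cells by the interaction test of edgeR's quasi-likelihood fit (12 libraries, adjusted p under 0.01). The log2 differences, High minus No ERN2, were -2.14 for XBP1, -2.16 for FICD, -1.58 for HSPA5, -1.40 for PDIA4 and -1.21 for HERPUD1, genes that all rose without doxycycline. For SUMO2, which fell without doxycycline, the difference was 1.05. XBP1 and FICD passed with each of the 12 libraries left out in turn.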

How the results depend on the processing

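The number of genes called with high ERN2, 29, became 728 with DESeq2, 299 without the filter on low counts, 941 with all 6 groups in the fit, 494 at 0.05, 884 with the GC trend removed, and 4 to 2568 with a library left out. Chaperones called higher, 3, became 9, 7, 6, 9, 8 and 0 to 10 in the same order. ATF4-CHOP genes, 7, became 12, 12, 11, 12, 12 and 2 to 12, and XBP1-associated genes, 0, became 1 with DESeq2 and 0 to 4 with a library left out. The 1611 No ERN2 calls became 3260 at 0.05, 2760 with the GC trend removed and 731 to 1901 with a library left out. The 212 Low ERN2 calls became 1039, 529, 676, 1009 and 665 in the order above, and 28 to 494. The 6 interaction calls became 341 with DESeq2, 14 with RLE, 86 without the filter, 35 with all groups, 149 at 0.05, 225 with the GC trend removed and 2 to 1286 with a library left out. The cause of these changes was not tested.

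Deviations of same-numbered High ERN2 control and stress libraries correlated at -0.40, -0.15 and 0.33. Those of No ERN2 libraries correlated at 0.089, 0.25 and 0.32, all above 0, and those of Low ERN2 libraries at 0.58, -0.030 and 0.52. The labels name no batch, and the main fits had no replicate block. Whether the numbers pair the samples was not tested, and the No and Low ERN2 counts above depend on it. With the replicate block the calls were 4 with high ERN2, 0 for chaperones, 2 for ATF4-CHOP genes and 3 for the interaction. They were 3571 without doxycycline and 3620 at 10 ng/mL, against 1611 and 212 in the main fits.

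The single genes whose values changed sign were not called in the comparison concerned. Among list medians with high ERN2, removal of the GC trend turned that of ER-associated degradation to -0.034, of ER-to-Golgi transport to -0.029 and of the sensors to -0.041, and in the interaction it turned that of the aminoacyl-tRNA synthetases to -0.090, of the RIDD targets to 0.0998 and of all genes tested from 0.04 to -0.017. With high ERN2, SUMO2 was at -0.011 with all 6 groups, -0.16 with the GC trend removed and -0.013 to 0.086 with a library left out. ATF6 was at -0.22 with the GC trend removed and -0.045 to 0.19 with a library left out, and BHLHA15 at 0.17 with the GC trend removed. In the interaction, ATF6 was at -0.038 with all 6 groups, -0.36 with the GC trend removed and -0.11 to 0.20 with a library left out. EGR1 was at -0.030 with all 6 groups and -0.11 to 0.28 with a library left out, and ASNS at -0.24 to 0.21.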

Other observations

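Of the 29 genes called with high ERN2, 11 were in none of the gene lists. Among these CRELD1, a membrane relative of the ER stress protein CRELD2, rose from 13.9, 15.2 and 14.7 CPM in High ERN2 controls to 49.3, 40.3 and 38.3 CPM under stress (log2 1.57, SE 0.163, edgeR, adjusted p = 0.00269). The groups were well separated, and its response without doxycycline was 1.81. DNAJB5, an HSP40 co-chaperone, rose from 14.0, 13.1 and 12.1 CPM to 30.9, 28.6 and 28.9 CPM (log2 1.19, adjusted p = 0.00889). RGS2, a brake on G protein signalling, rose from 8.03, 5.03 and 7.28 CPM to 17.0, 28.1 and 28.3 CPM (log2 1.87, adjusted p = 0.00925), and it was the one called gene that did not pass in Low ERN2 cells (log2 1.47, adjusted p = 0.0113). In each of these genes the lowest stress library lay above the highest control.

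KCNA1, a voltage-gated potassium channel, rose from 6.99, 4.94 and 4.73 CPM to 16.6, 18.2 and 16.1 CPM (log2 1.63, adjusted p = 0.00836). ZNF165, a zinc finger gene, rose from 7.41, 5.93 and 6.43 CPM to 16.2, 15.1 and 21.9 CPM (log2 1.45, adjusted p = 0.00966), against 2.65 without doxycycline. ZNF804A, another zinc finger gene, rose from 2.35, 1.69 and 1.12 CPM to 6.40, 15.6 and 12.4 CPM (log2 2.75, SE 0.366, adjusted p = 0.00889). Stress replicate 1 was the lowest of the stress libraries for ZNF804A and above every control. ZSCAN12P1, IFRD1, TMEM50B, COL4A1 and COL4A2 make up the rest of the 11.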
